A study of Homo sapiens with 16 samples.

Results

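The genes described here are 39 integrin and focal adhesion genes, taken by name from a list, out of 19970 protein-coding genes of the annotation. The list holds 17 integrin subunits and 22 proteins that bind integrins, actin or each other inside the cell. The data are ChIP-seq peak lists from H69, an established human cholangiocyte line, that is, a line from the epithelium of the bile duct that was immortalised with a viral T antigen. Cells received recombinant human TGF-beta at 10 ng/ml or vehicle for 16 h, and chromatin was precipitated for SMAD3, for histone H3 acetylated at lysine 27 (H3K27ac) or for histone H3 acetylated at lysine 9 (H3K9ac). Each of the 3 targets had 2 TGF-beta libraries and 2 vehicle libraries, 12 in all, numbered 4 and 5 for SMAD3 and 1 and 2 for each mark. All come from 1 cell line, the labels do not name the vehicle, and nothing says that the libraries of a group came from separate cultures, so p-values measure the spread between these libraries, which may be technical.

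Integrins are receptors made of an alpha and a beta subunit that bind collagen, laminin, fibronectin or other ligands outside the cell. Talins and kindlins bind the tails of the beta subunits and switch the receptors on, while talin, vinculin, alpha-actinin and filamin tie them to actin, and the ILK complex, focal adhesion kinase, SRC and scaffolds such as paxillin signal from the adhesion. TGF-beta acts through receptor kinases that phosphorylate SMAD3, which enters the nucleus and binds DNA with SMAD4 and other factors; both acetylation marks lie at active promoters, and H3K27ac also at active enhancers.

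The value of a gene is its peak length, the number of base pairs inside the peaks of a library within the gene span and 10 kb on each side (build hg38). Peak files hold no reads, so depth is unknown, and a longer peak length cannot be told apart from deeper or cleaner sequencing of that library. The TGF-beta libraries of SMAD3 held more peaks, 33700 and 34413, against 22451 and 25268 with vehicle. H3K27ac had 92714 and 90092 peaks with TGF-beta, against 82259 and 83429 with vehicle, and H3K9ac had 54682 and 56825, against 61297 and 55069. Libraries were therefore centred on their median over covered genes, which differed between TGF-beta and vehicle by 0.31 in SMAD3, 0.085 in H3K27ac and -0.090 in H3K9ac (log2), and each log2 change below is relative to that shift, TGF-beta minus vehicle, on log2 of the length plus 500 bp. Multiples of a vehicle mean given below use the lengths themselves, without centring or the added 500 bp. TGF-beta replicate 2 of each mark was on sequencing lane 8 and the other mark libraries on lane 7. The SMAD3 libraries shared lane 8. Of 9 cholangiocyte markers, 5 in SMAD3, 6 in H3K27ac and 7 in H3K9ac had peaks in all 4 libraries, and SPP1 and CFTR had none in any. Of 5 hepatocyte markers, ALB and TTR had none in any library, while SERPINA1 and APOA1 had peaks in all libraries of each target. In bulk chromatin, more cells with a mark and more of the mark per cell cannot be told apart.

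SMAD3 peak length rose at 16 of the 35 adhesion genes tested and fell at 1 with TGF-beta (limma, Benjamini-Hochberg adjusted p under 0.05 over 12505 genes). Over all genes tested, 11.2% rose and 1.4% fell. The median log2 change of the adhesion genes was 0.46, against -0.01 over all genes. Both TGF-beta libraries lay above both vehicle libraries, before centring, at 30 of the 35 genes, against 68.9% of all genes, and below them at 1, against 1.8%. The intracellular proteins had 12 of 22 higher and 1 lower, and the integrin subunits 4 of 13 higher and 0 lower. ITGA11, ITGA8, ITGA4 and ITGA9 were under the minimum mean of 500 bp and were not tested, and the last 3 had no SMAD3 peak in any library. When each library was held to the same number of its highest-scoring peaks, 5 adhesion genes rose (ITGB1, ACTN1, ACTN4, NEDD9 and TGFB1I1), beside 632 in place of 1406 of all genes.

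H3K27ac peak length rose at 15 of 37 adhesion genes and fell at 2. Over all 13991 genes tested, 14.8% rose and 11.4% fell, and the medians were 0.16 for the adhesion genes and -0.03 for all genes. Both TGF-beta libraries lay above both vehicle libraries at 26 adhesion genes, against 40.7% of all genes, and below them at 3, against 20.9%. H3K9ac rose at 10 of 36 and fell at 1, where 4.18% of 14601 genes rose and 5.27% fell, with medians of 0.09 and 0.00. Before centring, both H3K9ac TGF-beta libraries lay above vehicle at 12 adhesion genes, against 9.39% of all genes, and below at 6, against 40.9%. Without centring 2 adhesion genes rose in H3K9ac (ITGA11 and NEDD9) and 1 fell, beside 183 and 378 of 14601 genes. Increases then made up 32.6% of the calls over all genes, against 44.2% with centring. With lane 8 left out, that is without TGF-beta replicate 2, 10 adhesion genes rose and 2 fell in H3K27ac, and 8 rose and 1 fell in H3K9ac. Over all genes that setting gave 1237 higher and 734 lower in H3K27ac, in place of 2074 and 1594, and 371 higher and 641 lower in H3K9ac, in place of 611 and 770.

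Of the 39 adhesion genes, 6 rose in all 3 targets: ITGA5, TLN2, ACTN1, LIMS1, SRC and NEDD9. Of the 19970 genes of the annotation, 226 did so. With equal numbers of peaks, only ACTN1 and NEDD9 among these 6 adhesion genes kept the SMAD3 call. In that setting ACTN1 lost its H3K27ac call (limma adjusted p = 0.0634). Without centring, only NEDD9 among the 6 kept the H3K9ac call. Of the 16 that rose in SMAD3, 7 also rose in H3K27ac, which is 43.8% of the SMAD3 calls and 46.7% of the H3K27ac calls. Over all genes these shares were 33.0% and 22.4%. Of the 10 that rose in H3K9ac, 9 rose in H3K27ac, 90% of the H3K9ac and 60% of the H3K27ac calls, against 76.1% and 22.4% over all genes. No target gave a call at 12 adhesion genes: ITGA4, ITGA6, ITGA7, ITGA8, ITGA9, ITGB7, TLN1, VCL, ILK, PARVB, PTK2 and LPP. Among them ITGA4 and ITGA8 were not tested in any target, and ITGA9 was tested only in H3K27ac. Genes without any call were not counted over all genes.

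**Figure D1:**
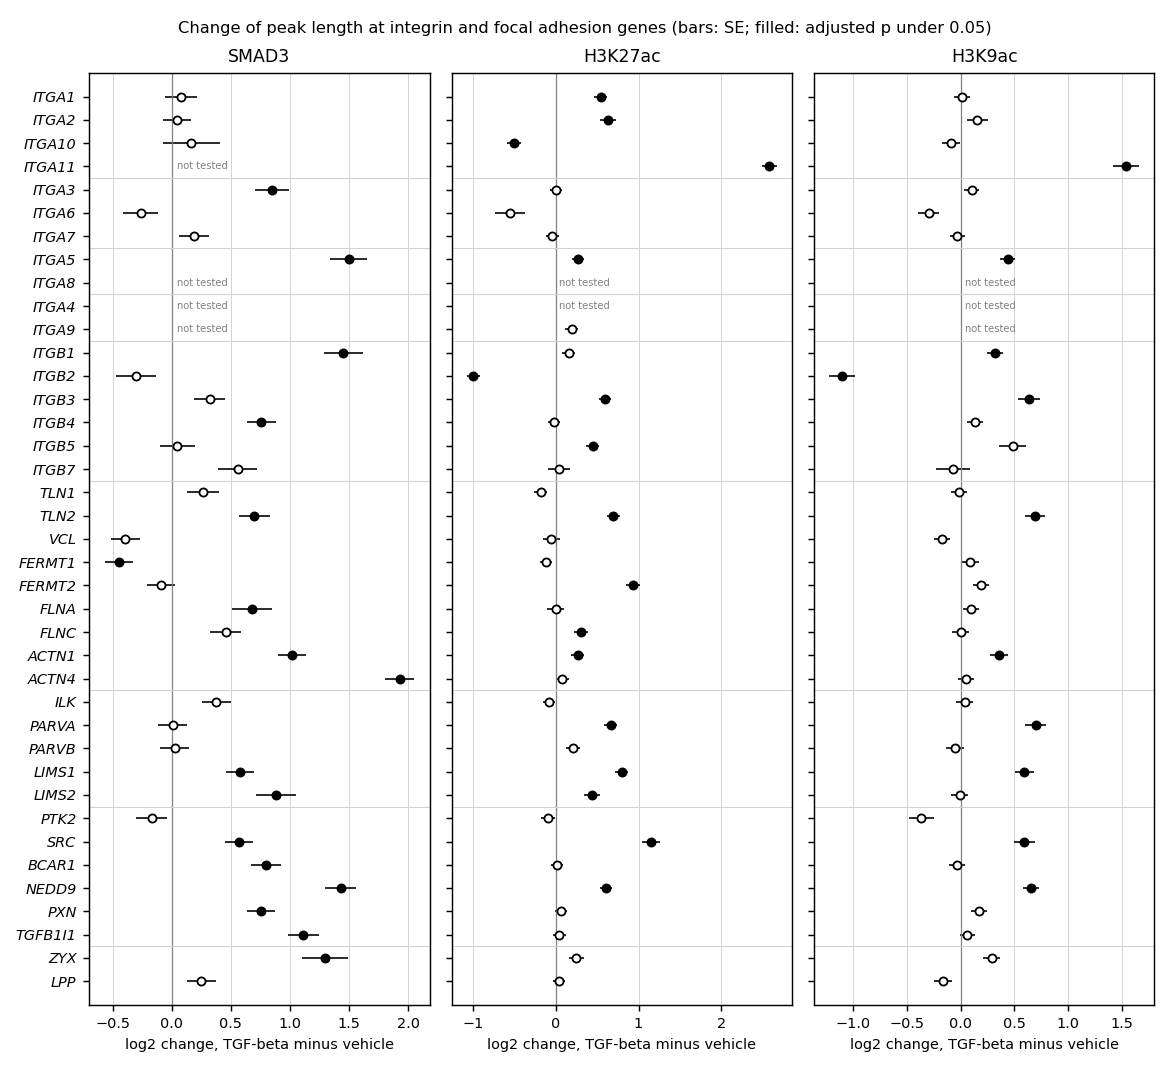
Log2 change of peak length (TGF-beta minus vehicle, after centring) for each adhesion gene in SMAD3, H3K27ac and H3K9ac, by role from top to bottom, with bars for the SE of limma (2 libraries a group). Filled points passed an adjusted p of 0.05; ACTN4 has the largest SMAD3 change at 1.93 and ITGA11 the largest change of each mark, 2.58 in H3K27ac and 1.54 in H3K9ac.

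Peaks at start sites could be placed for the 29 genes with a RefSeq promoter window. A SMAD3 peak lay within 1 kb of the start site in all 4 libraries at 19 of them, 65.5%, against 59.1% of 15811 start sites. It was called in both TGF-beta libraries and neither vehicle library at 2, ITGA11 and FLNC (6.90%, against 1.44% of all start sites). In no library was it called at 8 (27.6%, against 36.1%). H3K27ac was called at the start site with TGF-beta only at 1 gene, FLNC (3.45%, against 0.683% of all start sites). H3K9ac was so called at none, against 0.234% of all, a share so small that none among 29 tells little. The 250 bases before 3 starts are shown because SMAD3 peaks there differ in kind: TGF-beta only at ITGA11 and FLNC, and at ITGA5 a peak in all libraries with TGF-beta-only peaks on either side. They are RefSeq sequences of GRCh38.p14 (ITGA11 chr15:68432164-68432413, minus strand; FLNC chr7:128830156-128830405, plus strand; ITGA5 chr12:54419267-54419516, minus strand), written 5′ to 3′ toward the start. Capitals mark CAGAC or its reverse complement GTCTG, the SMAD-binding element, and GGCGC or GCGCC, a GC-rich motif that SMAD3 also binds in vitro.
ITGA11: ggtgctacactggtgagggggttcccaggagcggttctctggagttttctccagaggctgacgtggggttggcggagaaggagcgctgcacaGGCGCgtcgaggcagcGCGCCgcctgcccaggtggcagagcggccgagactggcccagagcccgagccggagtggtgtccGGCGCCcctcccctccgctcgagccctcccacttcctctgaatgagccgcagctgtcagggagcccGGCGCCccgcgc
FLNC: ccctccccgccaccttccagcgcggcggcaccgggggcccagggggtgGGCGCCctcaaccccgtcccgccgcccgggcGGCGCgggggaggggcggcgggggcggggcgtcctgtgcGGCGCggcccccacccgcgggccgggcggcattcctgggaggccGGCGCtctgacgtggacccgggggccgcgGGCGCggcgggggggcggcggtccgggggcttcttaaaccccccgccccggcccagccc
ITGA5: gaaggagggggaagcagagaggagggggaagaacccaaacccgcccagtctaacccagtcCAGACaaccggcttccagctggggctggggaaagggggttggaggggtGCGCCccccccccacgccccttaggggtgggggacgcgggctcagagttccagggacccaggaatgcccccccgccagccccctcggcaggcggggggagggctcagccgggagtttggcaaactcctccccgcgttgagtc
The ITGA11 and FLNC windows held 6 GGCGC matches each (GGCGCC reads as a match on both strands and counts as 2) and no CAGAC, and the ITGA5 window held 1 of each. At the ITGA11 window SMAD3 peaks covered 63 and 70 bases with TGF-beta, against 0 and 0 with vehicle, and at the FLNC window 160 and 100 bases, against 0 and 0. Among the 29 adhesion promoters, GGCGC on either strand occurred in 24 (82.8%), against 57.5% of all promoters of this length, and CAGAC in 8 (27.6%), against 36.7%. GGAATG, the TEAD motif, occurred in 5 (17.2%, against 10.1%), the AP-1 motif TGANTCA in 2 (6.90%, against 5.05%), the CArG box bound by serum response factor in 1 (FLNA, against 1.14% of all) and the palindrome GTCTAGAC in 0 (against 0.209%). Matches describe letters in the window and show no binding.

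Among the collagen receptor alpha subunits, which all pair with ITGB1, H3K27ac rose at ITGA1, ITGA2 and ITGA11 and fell at ITGA10, while no SMAD3 change passed. ITGA11, the alpha subunit of a fibrillar collagen receptor best known from fibroblasts, had 7.39 and 7.10 kb of H3K27ac with TGF-beta, against 0.624 and 0.826 kb with vehicle. The groups did not overlap, and the log2 change was 2.58 ± 0.09 (SE, n = 2 each; limma adjusted p = 2.6e-05). Its H3K9ac was 1.82 and 2.77 kb with TGF-beta, against 0.535 and 0.478 kb with vehicle, a log2 change of 1.54 ± 0.12 (adjusted p = 0.000535). SMAD3 had 0.513 and 0.665 kb there with TGF-beta and 0 and 0 with vehicle, in a peak across the start site (chr15:68431847-68432233) and another 79.2 kb into the gene. At that start, H3K9ac covered 825 and 996 bp with TGF-beta, against 264 and 164 bp with vehicle, and H3K27ac was not called in any library. ITGA11 held 11 H3K27ac regions called only with TGF-beta, the longest 68.0 kb from the start at chr15:68363677-68364707, and 1 called in all libraries.

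ITGA1 and ITGA2, neighbours on chromosome 5 that encode receptors for basement membrane and fibrillar collagens, had higher H3K27ac without a call in H3K9ac. ITGA1 had 15.7 and 16.2 kb of H3K27ac with TGF-beta, against 9.62 and 10.7 kb with vehicle, a log2 change of 0.54 ± 0.08 (SE, n = 2 each; limma adjusted p = 0.00356). Its H3K9ac libraries overlapped, at 6.94 and 8.11 kb against 8.23 and 7.65 kb. The longest of 9 ITGA1 regions called only with TGF-beta was chr5:52859856-52860771, 72.4 kb into the gene. ITGA2 had 11.2 and 10.9 kb of H3K27ac with TGF-beta, against 5.87 and 7.24 kb with vehicle (log2 change 0.63 ± 0.09, adjusted p = 0.00395), and its SMAD3 values of 1.17 and 1.15 kb lay above 0.760 and 0.849 kb but gave a centred change of 0.04 (adjusted p = 0.84). ITGA2 H3K9ac was 3.41 and 4.07 kb, against 4.05 and 3.09 kb, and overlapped. ITGA10, a collagen receptor subunit of cartilage, had 7.19 and 7.79 kb of H3K27ac with TGF-beta, against 10.2 and 10.2 kb with vehicle (log2 change -0.51 ± 0.08, adjusted p = 0.00606), in a window that also holds other genes.

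A test of the treatment by mark term asked where the H3K27ac change differed from the H3K9ac change, and 3 of 36 adhesion genes passed, all with the larger change in H3K27ac. Over 13597 genes, 5.7% passed in this direction and 1.88% in the other. They were ITGA11, with a difference of 1.04 ± 0.16 (log2, SE; adjusted p = 0.00524), FERMT2, with 0.74 ± 0.11 (adjusted p = 0.00458), and ITGA1, with 0.53 ± 0.10 (adjusted p = 0.0143). The ITGA1 difference no longer passed without TGF-beta replicate 1 of H3K9ac (adjusted p = 0.0678) or TGF-beta replicate 2 of H3K27ac (0.059), in a range over its alternatives that reached 0.0678.

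The summed peak length of the fibroblast and smooth muscle markers was higher with TGF-beta in all 3 targets, but single markers differed. Of 4 markers, 3 had H3K27ac peaks in all libraries and DES had none; the sum over the 4 was 20.8 to 22.8 kb with TGF-beta, against 14.6 to 15.6 kb with vehicle. The sum for SMAD3 was 6.05 to 6.28 kb with TGF-beta, against 2.05 to 2.56 kb with vehicle. In H3K9ac it was 14.01 to 16.19 kb, against 11.7 to 13.7 kb. There PDGFRB was higher, at 11.07 and 12.21 kb with TGF-beta against 9.91 and 8.19 kb with vehicle. ACTG2 was lower in H3K9ac, at 0.953 and 1.148 kb with TGF-beta against 1.368 and 1.255 kb with vehicle, and THY1 and DES overlapped. Sums of other marker sets, not centred, also lay apart. H3K27ac was higher over 4 endothelial markers, at 22.7 to 23.1 kb with TGF-beta against 19.9 to 20.3 kb with vehicle, and over the 5 hepatocyte markers, at 10.2 to 10.4 kb against 6.97 to 8.65 kb. Over the 9 cholangiocyte markers it was lower, at 60.7 to 61.8 kb with TGF-beta against 62.7 to 67.0 kb with vehicle, as was H3K9ac, at 38.7 to 44.6 kb against 45.1 to 49.8 kb, while SMAD3 was higher, at 44.97 to 45.43 kb against 29.05 to 39.04 kb. The part of these markers in the results was not tested.

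**Figure D2:**
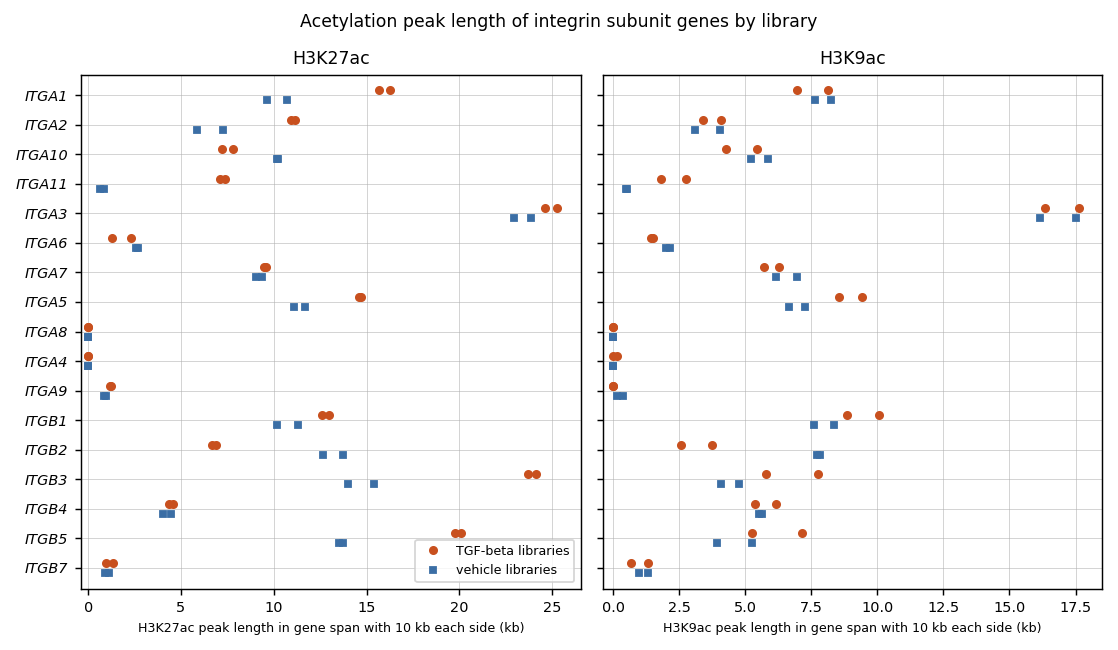
H3K27ac (left) and H3K9ac (right) peak length in kb for each integrin subunit gene, 1 point per library, TGF-beta libraries as circles above vehicle libraries as squares. ITGA11, ITGB3 and ITGB5 lie to the right with TGF-beta in H3K27ac and ITGB2 lies to the left in both marks, at 6.68 and 6.88 kb of H3K27ac against 12.7 and 13.7 kb.

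Of the laminin receptor alpha subunits ITGA3, ITGA6 and ITGA7, only ITGA3 changed past the threshold, in SMAD3. ITGA3, an epithelial laminin receptor subunit, had 9.92 and 8.12 kb of SMAD3 with TGF-beta, against 3.25 and 4.33 kb with vehicle. The groups lay apart, with a log2 change of 0.85 ± 0.15 (SE, n = 2 each; limma adjusted p = 0.00723). This call was lost without vehicle replicate 4 (adjusted p = 0.0572) and with equal numbers of peaks (0.16), in a range of 0.000645 to 0.16 over 14 alternatives. Its H3K27ac was 25.3 and 24.6 kb, against 22.9 and 23.9 kb, a centred change of 0.01 that did not pass. ITGA6, whose subunit pairs with ITGB4 in hemidesmosomes, had 2.29 and 1.30 kb of H3K27ac with TGF-beta, against 2.56 and 2.66 kb with vehicle. The TGF-beta libraries were lower but differed widely from each other, and the change did not pass (log2 change -0.55 ± 0.18, adjusted p = 0.0684). It passed as lower in 5 of 14 alternatives, among them without TGF-beta replicate 1 (adjusted p = 0.00591, the lowest of a range that reached 0.176).

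ITGA5, which with ITGB1 forms the fibronectin receptor and recognises the RGD sequence of its ligand, rose in all 3 targets. Its SMAD3 was 4.06 and 2.96 kb with TGF-beta, against 0.587 and 0.691 kb with vehicle. That was 5.49 times the vehicle mean and a log2 change of 1.50 ± 0.16 (SE, n = 2 each; limma adjusted p = 0.000922), which lost its call only with equal numbers of peaks among 14 alternatives (adjusted p = 0.123, the highest in a range from 3.4e-05). The 4 regions called only with TGF-beta lay between -9.32 and 1.27 kb from the start, on H3K27ac present in all libraries. ITGA5 H3K9ac was 8.55 and 9.41 kb with TGF-beta, against 7.25 and 6.64 kb with vehicle (log2 change 0.44 ± 0.07, adjusted p = 0.0107), and no longer passed without TGF-beta replicate 1 (adjusted p = 0.0582) or without centring (0.132, the highest of 15 alternatives, from 0.000894). Its H3K27ac was 14.6 and 14.7 kb, against 11.1 and 11.7 kb (log2 change 0.26 ± 0.07, adjusted p = 0.0395), and leaving out any 1 library ended this call, at adjusted p of 0.0948 to 0.188 in a range of 0.00541 to 0.194 over 14 alternatives. ITGA8, the other RGD-binding alpha subunit listed, had no peak of any target in any library.

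ITGA4 and ITGA9, which bind fibronectin, VCAM or tenascin, were almost bare. ITGA4 had 1 peak in all 12 libraries, 0.144 kb of H3K9ac in TGF-beta replicate 2. ITGA9 had no SMAD3 peak, 1.16 and 1.23 kb of H3K27ac with TGF-beta against 0.841 and 0.949 kb with vehicle (adjusted p = 0.114), and 0 and 0 kb of H3K9ac against 0.361 and 0.159 kb, too little to test.

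Among the 6 beta subunits, ITGB1 and ITGB4 rose in SMAD3, ITGB3 in both marks, ITGB5 in H3K27ac and ITGB1 in H3K9ac, while ITGB2 fell in both marks. ITGB1, the partner of most alpha subunits listed here, had 6.49 and 4.71 kb of SMAD3 with TGF-beta, against 1.10 and 1.49 kb with vehicle. The groups lay far apart. The log2 change was 1.45 ± 0.17 (SE, n = 2 each; limma adjusted p = 0.00123), and all 14 alternatives kept the call. The longest of 6 regions called only with TGF-beta, chr10:32955063-32956199, lay 2.60 kb into the gene on H3K27ac found in all libraries. ITGB1 H3K27ac was 12.6 and 13.0 kb, against 10.2 and 11.3 kb, without a call (adjusted p = 0.192). Its H3K9ac was 8.84 and 10.1 kb, against 8.36 and 7.60 kb (log2 change 0.32 ± 0.07, adjusted p = 0.0375), a call that leaving out any library ended (adjusted p of 0.0672 to 0.166, in a range of 0.0042 to 0.325 over 15 alternatives).

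ITGB4, the hemidesmosome subunit that binds laminin with ITGA6, had 4.65 and 4.29 kb of SMAD3 with TGF-beta, against 1.68 and 2.11 kb with vehicle. The log2 change was 0.76 ± 0.12 (SE, n = 2 each; limma adjusted p = 0.00556), and it fell to 0.06 with equal numbers of peaks (adjusted p = 0.802, the highest of 14 alternatives, from 0.0061). The longest region called only with TGF-beta there, chr17:75754411-75755615, lies in a stretch that the neighbouring GALK1 shares. ITGB4 H3K27ac (4.58 and 4.38 kb, against 4.04 and 4.48 kb) and H3K9ac (5.36 and 6.18 kb, against 5.62 and 5.53 kb) overlapped between groups.

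ITGB3, the subunit of vitronectin and fibrinogen receptors, had 24.1 and 23.7 kb of H3K27ac with TGF-beta, against 14.03 and 15.42 kb with vehicle (log2 change 0.60 ± 0.07, SE, n = 2 each; limma adjusted p = 0.00196). It held 7 H3K27ac regions called only with TGF-beta, the longest at chr17:47287638-47288672. Its H3K9ac was 5.77 and 7.74 kb, against 4.76 and 4.09 kb (log2 change 0.64 ± 0.10, adjusted p = 0.00987). ITGB5, which pairs with ITGAV, had 19.7 and 20.1 kb of H3K27ac, against 13.7 and 13.5 kb (log2 change 0.45 ± 0.08, adjusted p = 0.0074), and passed in 13 of 14 alternatives, the exception being without TGF-beta replicate 2 (adjusted p = 0.0581, the highest, from 0.000326). Its H3K9ac, 5.24 and 7.14 kb against 5.26 and 3.92 kb, overlapped and did not pass (log2 change 0.48 ± 0.13, adjusted p = 0.0565), but passed as higher in 8 of 15 alternatives (range 0.0122 to 0.276).

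ITGB2, the beta subunit of leukocyte integrins, moved the other way. Its H3K27ac was 6.68 and 6.88 kb with TGF-beta, against 12.7 and 13.7 kb with vehicle, a log2 change of -0.99 ± 0.08 (SE, n = 2 each; limma adjusted p = 0.000321). Its H3K9ac was 2.57 and 3.75 kb, against 7.71 and 7.84 kb (log2 change -1.11 ± 0.12, adjusted p = 0.00199). All alternatives kept both calls. The window held 3 H3K27ac and 7 H3K9ac regions called only with vehicle, among them chr21:44883815-44884782 (H3K27ac) and chr21:44883113-44883616 (H3K9ac), neighbours beside the gene. It also held the only SMAD3 region of any adhesion gene called with vehicle alone, chr21:44932013-44932208 (196 bp), beside a SMAD3 region called only with TGF-beta, chr21:44929057-44929339 (283 bp). The sum of 4 leukocyte markers moved with it, at 5.78 to 5.80 kb of H3K27ac with TGF-beta against 8.35 to 9.02 kb with vehicle, and 5.02 to 5.51 kb of H3K9ac against 6.57 to 7.55 kb. Of these 4, 3 had peaks in all libraries in each mark, none was at 0 in every library of a mark, and PTPRC, the leukocyte common antigen, had 1.43 and 1.42 kb of H3K27ac, against 2.70 and 2.75 kb; their part in the result was not tested.

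**Figure D3:**
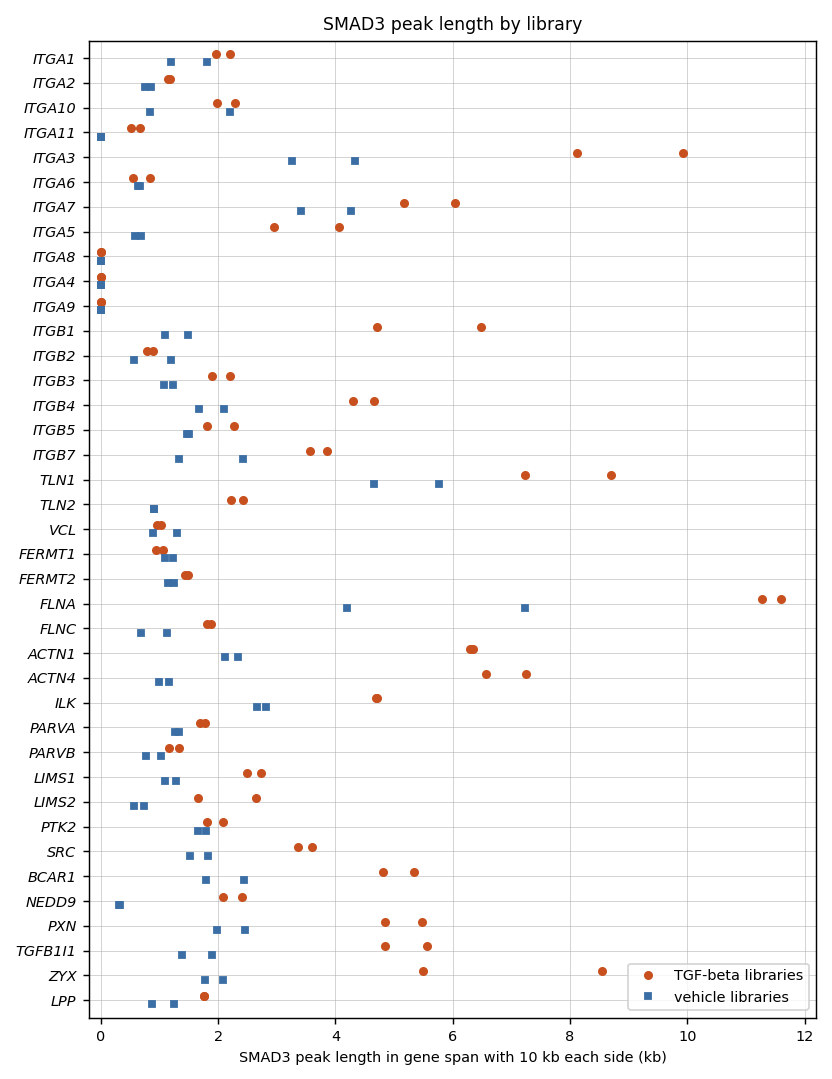
SMAD3 peak length in kb for each adhesion gene, 1 point per library, TGF-beta libraries as circles above vehicle libraries as squares. At ACTN4, ITGB1, ITGA5, NEDD9 and TGFB1I1 both TGF-beta points lie far to the right of both vehicle points, while ITGA8, ITGA4 and ITGA9 stay at 0 in every library.

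Among the 9 actin linkers and integrin activators, SMAD3 rose at TLN2, FLNA, ACTN1 and ACTN4. ACTN4, an alpha-actinin that crosslinks actin filaments, showed the largest SMAD3 log2 change of the adhesion genes tested. It had 7.25 and 6.57 kb with TGF-beta, against 0.988 and 1.17 kb with vehicle, 6.42 times the vehicle mean and a log2 change of 1.93 ± 0.12 (SE, n = 2 each; limma adjusted p = 0.000148) that all 14 alternatives kept. Of 6 regions called only with TGF-beta, 3 lay upstream of the start without any H3K27ac peak, the longest at chr19:38639681-38640821, 7.40 kb upstream, and the next at chr19:38638622-38639442. H3K27ac filled 60.0% of the ACTN4 window with TGF-beta and 53.5% with vehicle, the highest share of the adhesion genes, and did not pass (62.9 and 61.8 kb, against 52.7 and 58.5 kb; adjusted p = 0.484).

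ACTN1, the other widely expressed alpha-actinin, had 6.29 and 6.34 kb of SMAD3 with TGF-beta, against 2.11 and 2.34 kb with vehicle (log2 change 1.02 ± 0.12, SE, n = 2 each; limma adjusted p = 0.00134), and kept this call in all 14 alternatives. Its 5 regions called only with TGF-beta lay inside the gene on H3K27ac found in all libraries, the longest at chr14:68976509-68977554, 2.27 kb from the start, and chr14:68950702-68951718, 28.1 kb from it. ACTN1 H3K27ac was 37.6 and 34.6 kb, against 26.9 and 29.6 kb (log2 change 0.26 ± 0.08, adjusted p = 0.0496), and H3K9ac 15.5 and 17.5 kb, against 14.9 and 12.3 kb (log2 change 0.36 ± 0.08, adjusted p = 0.0395). Leaving out any library ended the H3K27ac call (adjusted p of 0.0813 to 0.23, in a range of 0.00284 to 0.23 over 14 alternatives). Leaving out TGF-beta replicate 1 (0.132), TGF-beta replicate 2 (0.141) or vehicle replicate 2 (0.115) ended the H3K9ac call, in a range of 0.00541 to 0.304 over 15.

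TLN2, a talin that binds beta subunit tails, rose in all 3 targets over its whole window. It had 2.42 and 2.22 kb of SMAD3 with TGF-beta, against 0.910 and 0.904 kb with vehicle (log2 change 0.70 ± 0.13, SE, n = 2 each; limma adjusted p = 0.0113). Within 2.5 kb of the gene the SMAD3 change was -0.05 (adjusted p = 0.838, the highest of 14 alternatives), so that the call rested on the flanks. The call was also lost with equal numbers of peaks (log2 change 0.19, adjusted p = 0.437) and without TGF-beta replicate 4 (log2 change 0.63). Its H3K27ac was 15.6 and 15.6 kb, against 8.29 and 9.47 kb (log2 change 0.70 ± 0.08, adjusted p = 0.00147), and its H3K9ac 6.62 and 8.53 kb, against 4.98 and 4.59 kb (log2 change 0.69 ± 0.09, adjusted p = 0.00433). Within 1 kb of the TLN2 start both marks were lower with TGF-beta: H3K27ac covered 364 and 367 bp, against 738 and 679 bp with vehicle, and H3K9ac 1464 and 1682 bp, against 1925 and 1838 bp. An H3K27ac region called only with vehicle, chr15:62391003-62391369, lay there. The longest H3K9ac region of the list called only with TGF-beta, chr15:62848407-62849172, lay in the downstream flank. TLN1, the widely expressed talin, had no call; its longest TGF-beta-only SMAD3 region, chr9:35738953-35740428, lies in the neighbouring GBA2.

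The filamins FLNA and FLNC crosslink actin and bind integrin tails. FLNA had 11.3 and 11.6 kb of SMAD3 with TGF-beta, against 4.20 and 7.23 kb with vehicle, which covered 24.8% and 12.4% of its window, the highest shares of the list (log2 change 0.68 ± 0.17, SE, n = 2 each; limma adjusted p = 0.0382). The 2 vehicle libraries differed widely, and the call did not hold without vehicle replicate 4 (adjusted p = 0.151), TGF-beta replicate 4 (0.08) or TGF-beta replicate 5 (0.0607), and held in 5 of 14 alternatives (range 0.00748 to 0.151). FLNC, the filamin of muscle, had a TGF-beta-only start site in 2 targets: SMAD3 covered 486 and 281 bp within 1 kb of the start with TGF-beta, against 0 and 0 bp with vehicle, and H3K27ac 842 and 820 bp, against 0 and 0 bp. H3K9ac was present at that start in all libraries, at 1377 and 1429 bp against 1161 and 1216 bp. Over the whole FLNC window SMAD3 was 1.81 and 1.89 kb, against 0.678 and 1.12 kb (adjusted p = 0.0605), and H3K27ac 2.81 and 2.40 kb, against 1.77 and 1.96 kb (log2 change 0.31 ± 0.09, adjusted p = 0.0416), a call lost without any 1 library (adjusted p of 0.0666 to 0.214) and kept in 4 of 14 alternatives (range 5.49e-05 to 0.43).

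Of the kindlins, which activate integrins beside talin, FERMT2 rose in H3K27ac and FERMT1 fell in SMAD3. FERMT2, the kindlin of mesenchymal cells, had 7.88 and 8.40 kb of H3K27ac with TGF-beta, against 3.82 and 3.72 kb with vehicle (log2 change 0.93 ± 0.08, SE, n = 2 each; limma adjusted p = 0.000599). All 7 of its TGF-beta-only H3K27ac regions lay inside the gene, the longest at chr14:52906614-52907461, 44.0 kb from the start. Its H3K9ac, 3.01 and 3.61 kb against 3.24 and 2.86 kb, overlapped, and its SMAD3, 1.44 and 1.48 kb against 1.14 and 1.24 kb, did not pass. FERMT1, the epithelial kindlin, had 0.943 and 1.06 kb of SMAD3, against 1.09 and 1.23 kb (log2 change -0.45 ± 0.12, adjusted p = 0.0429), a call lost without any 1 library (adjusted p of 0.0694 to 0.199) and kept in 2 of 14 alternatives (range 0.0322 to 0.448). VCL, which encodes vinculin, the actin linker recruited to talin under tension, had no call: SMAD3 was 0.963 and 1.02 kb, against 0.896 and 1.30 kb, H3K27ac 5.59 and 4.88 kb, against 4.53 and 5.72 kb, and H3K9ac 2.25 and 2.62 kb, against 3.25 and 2.82 kb.

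In the ILK complex, in which integrin-linked kinase (ILK) binds a parvin and a PINCH protein, the PINCH genes LIMS1 and LIMS2 and the parvin gene PARVA changed. LIMS1 had 19.0 and 20.6 kb of H3K27ac with TGF-beta, against 10.0 and 11.0 kb with vehicle (log2 change 0.79 ± 0.08, SE, n = 2 each; limma adjusted p = 0.00106). Its H3K9ac was 6.61 and 7.60 kb, against 5.47 and 4.29 kb (log2 change 0.59 ± 0.09, adjusted p = 0.00837). Its SMAD3, 2.48 and 2.73 kb against 1.10 and 1.27 kb, rose by 0.58 on the log2 scale (adjusted p = 0.0158). This call was lost with equal numbers of peaks (log2 change 0.42, adjusted p = 0.139) and with flanks of 50 kb (0.24, adjusted p = 0.185, the highest of 14 alternatives). It was also lost without vehicle replicate 4 (log2 change 0.61) or TGF-beta replicate 5 (0.54). PARVA had 9.12 and 9.22 kb of H3K27ac, against 5.35 and 5.14 kb (log2 change 0.67 ± 0.08, adjusted p = 0.00177), and 3.55 and 4.74 kb of H3K9ac, against 2.68 and 2.38 kb (log2 change 0.70 ± 0.10, adjusted p = 0.00524). Within 2.5 kb of the PARVA gene these changes were 0.25 and 0.02 and neither passed (adjusted p = 0.109 and 0.947, the highest of the alternatives of each mark); the longest TGF-beta-only H3K9ac region, chr11:12540472-12541032, lies in the flank.

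LIMS2 had 1.65 and 2.64 kb of SMAD3 with TGF-beta, against 0.556 and 0.735 kb with vehicle (log2 change 0.88 ± 0.17, SE, n = 2 each; limma adjusted p = 0.0128), and 5.36 and 4.94 kb of H3K27ac, against 3.63 and 3.22 kb (log2 change 0.44 ± 0.10, adjusted p = 0.0176). The SMAD3 call was lost with equal numbers of peaks (log2 change 0.23, adjusted p = 0.323, the highest of the alternatives) and with flanks of 50 kb (0.34, adjusted p = 0.108). It was also lost without vehicle replicate 4 (log2 change 0.87). The H3K27ac call was lost without TGF-beta replicate 1 (0.0972), TGF-beta replicate 2 (0.0668) or vehicle replicate 2 (0.0588), in a range of 0.00342 to 0.0972. Its window also holds MYO7B and GPR17. ILK itself had 4.69 and 4.71 kb of SMAD3, against 2.67 and 2.82 kb, without a call (adjusted p = 0.0825), and PARVB had no call in any target.

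Of the 6 kinases and scaffolds, all tested, SMAD3 rose at 5, where 11.2% of all genes rose, with a median log2 change of 0.78. NEDD9, a scaffold of the CAS family known as a TGF-beta-responsive protein, had 2.40 and 2.08 kb with TGF-beta, against 0.317 and 0.329 kb with vehicle. The vehicle values were almost alike, the TGF-beta mean was 6.94 times theirs, and the log2 change was 1.43 ± 0.14 (SE, n = 2 each; limma adjusted p = 0.000543), kept in all 14 alternatives. NEDD9 also rose in H3K27ac, at 45.8 and 45.7 kb against 27.6 and 28.9 kb (log2 change 0.60 ± 0.07, adjusted p = 0.00176), and in H3K9ac, at 13.0 and 15.2 kb against 9.65 and 9.02 kb (log2 change 0.66 ± 0.08, adjusted p = 0.00254). It held 10 of the 36 H3K9ac regions called only with TGF-beta in the adhesion windows. Of these, 4 lay between 63.2 and 66.5 kb from its annotated start, among them chr6:11317571-11318305, chr6:11318792-11319437 and chr6:11315486-11316121, around a TGF-beta-only SMAD3 region at chr6:11316373-11316673. No target had a peak within 1 kb of that annotated start in any library. Further into the gene, regions called in all libraries lay at 149.3 to 150.2 kb in SMAD3, 149.7 to 154.1 kb in H3K27ac and 149.7 to 153.9 kb in H3K9ac. Near the far end of the gene a vehicle-only H3K9ac region, chr6:11194372-11195535, was the longest of its kind in the list.

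TGFB1I1, which encodes a paxillin relative found as TGF-beta-induced, had 5.55 and 4.84 kb of SMAD3 with TGF-beta, against 1.39 and 1.90 kb with vehicle (log2 change 1.11 ± 0.13, SE, n = 2 each; limma adjusted p = 0.00153; kept in all 14 alternatives). Its window also holds ARMC5 and SLC5A2. PXN, the paxillin gene, had 4.85 and 5.48 kb, against 1.99 and 2.45 kb (log2 change 0.76 ± 0.12, adjusted p = 0.00523), and BCAR1, the founding CAS scaffold, 4.81 and 5.35 kb, against 1.79 and 2.44 kb (log2 change 0.80 ± 0.12, adjusted p = 0.0049). Both were lost with equal numbers of peaks, at adjusted p of 0.0582 for PXN (range over alternatives 0.00246 to 0.382, the highest with 50 kb flanks) and 0.0875 for BCAR1 (range from 0.00104). None of these 3 genes had a call in either mark. PXN H3K27ac filled 51.5% of the window with TGF-beta and 46.3% with vehicle, and BCAR1 H3K27ac 49.0% and 45.5%.

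SRC, the kinase that acts with focal adhesion kinase, had 10.3 and 9.45 kb of H3K27ac with TGF-beta, against 3.37 and 4.48 kb with vehicle, the second largest H3K27ac increase of the list (log2 change 1.15 ± 0.11, SE, n = 2 each; limma adjusted p = 0.000794). It held the longest TGF-beta-only H3K27ac region, chr20:37358077-37359263, and another of H3K9ac, chr20:37355769-37356461, both inside the gene. Its H3K9ac was 5.60 and 6.27 kb, against 4.65 and 3.50 kb (log2 change 0.59 ± 0.10, adjusted p = 0.0116). Its SMAD3, 3.60 and 3.36 kb against 1.52 and 1.83 kb, rose by 0.57 on the log2 scale (adjusted p = 0.0176). This call was lost with equal numbers of peaks (log2 change 0.48, adjusted p = 0.0533). It was also lost without vehicle replicate 4 (log2 change 0.57) or TGF-beta replicate 4 (0.51). PTK2, which encodes focal adhesion kinase, had no call: SMAD3 was 2.09 and 1.80 kb, against 1.66 and 1.79 kb, H3K27ac 12.5 and 13.6 kb, against 13.3 and 13.0 kb, and H3K9ac 3.63 and 3.49 kb, against 5.88 and 4.36 kb, where both TGF-beta libraries lay below both vehicle libraries (adjusted p = 0.0986). Without vehicle replicate 2 the H3K9ac change of PTK2 passed, at -0.51 (adjusted p = 0.0169).

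Of the zyxin family, whose LIM domain proteins gather on actin under tension, ZYX rose in SMAD3. It had 8.55 and 5.49 kb with TGF-beta, against 1.78 and 2.08 kb with vehicle (log2 change 1.30 ± 0.20, SE, n = 2 each; limma adjusted p = 0.00431; lost only with equal numbers of peaks, at 0.0516, the highest of 14 alternatives, from 6.7e-05). Peaks covered 23.6% of its short window with TGF-beta and 6.5% with vehicle, and the longest TGF-beta-only region, chr7:143387220-143388104, had no H3K27ac. ZYX H3K27ac (6.67 and 6.10 kb, against 5.12 and 4.79 kb) and H3K9ac (4.76 and 4.92 kb, against 4.19 and 4.10 kb) lay above vehicle without a call (adjusted p = 0.0806 and 0.062). LPP, its relative, had 1.76 and 1.76 kb of SMAD3, against 0.868 and 1.24 kb, without a call (adjusted p = 0.212).

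Merging overlapping peaks across the 4 SMAD3 libraries gave 287 regions in the adhesion windows. Both TGF-beta libraries and neither vehicle library called 61 of them, both vehicle libraries alone called 1, and all 4 called 68. The 61 were 21.3% of the regions, against 13.7% of 38390 regions genome-wide. Among the 61, 39 (63.9%) overlapped an H3K27ac region called in all 4 libraries, 1 (1.64%) an H3K27ac region called only with TGF-beta and 16 (26.2%) no H3K27ac region. In the windows of all protein-coding genes these shares were 55.0%, 4.54% and 33.1%. They were shorter than the constant ones, with medians of 476 and 1177.5 bp, and 3 of the 61 (4.92%) were within 1 kb of a placed start site of any gene, against 13.3% over all windows; 14 of the 61 lay only in windows of adhesion genes without a placed start, so that their own start could not be counted. H3K27ac had 114 regions called only with TGF-beta, 20 only with vehicle and 218 in all 4 of 663, and H3K9ac 36, 20 and 166 of 401. Genome-wide these classes were 12498, 4931 and 43717 of 104387 regions for H3K27ac and 3505, 4188 and 33894 of 68046 for H3K9ac. Other vehicle-only regions among the longest lay at ITGA6 (chr2:172428697-172429287), ITGA10 (chr1:145895471-145896004) and beside ITGA7 in TMT1B (chr12:55681696-55682281) for H3K27ac, and at ACTN4 (chr19:38719671-38720200) and BCAR1 (chr16:75257923-75258373) for H3K9ac. The annotation used gives no exons, so exon or intron is not stated for any region.

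**Figure D4:**
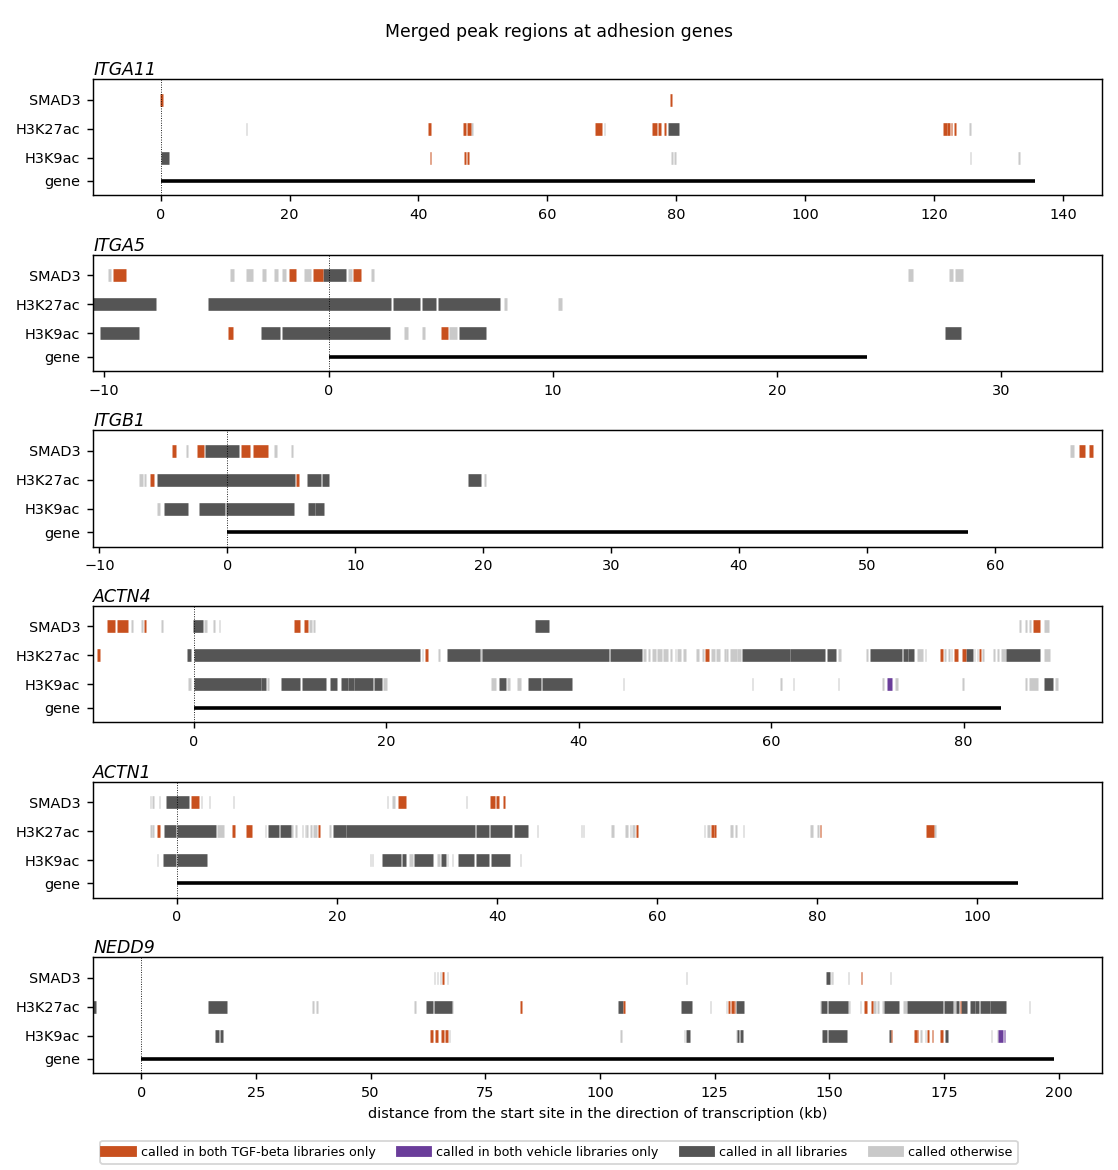
Merged peak regions of SMAD3, H3K27ac and H3K9ac along 6 adhesion genes, by distance from the start site in kb in the direction of transcription, with the gene as a black line. Orange marks regions of both TGF-beta libraries only, purple in both vehicle libraries only and dark grey in all 4. Near the ITGB1 and ACTN1 starts, SMAD3 regions in orange lie beside dark ones. Others in orange lie farther off, within 27.6 to 41.0 kb at ACTN1 and 66.6 to 67.7 kb at ITGB1. At NEDD9 orange H3K9ac regions cluster around 65.8 kb.

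The other genes of the pathway were read from a list of 45. SMAD3 rose at 10 of 39 tested and fell at 1 (ITGB8, log2 change -0.52), where 11.2% of all genes rose and 1.4% fell, with the largest increases at ITGB6, the epithelial partner of ITGAV that activates latent TGF-beta (2.22), PDLIM7 (2.13), TNS1 (1.44) and ITGAE (1.15). H3K27ac rose at 8 of 40 (20.0%) and fell at 6 (15.0%), near the 14.8% and 11.4% of all genes, with the largest increases at TNS1 (3.43), ITGAE (1.76), TNS3 (0.71) and KANK1 (0.56) and the largest decreases at CRK (-0.82), SORBS3 (-0.74), LIMD1 (-0.50) and ITGAL (-0.41). H3K9ac rose at 7 of 41 and fell at 2, where 4.18% of all genes rose and 5.27% fell, with TNS1 (1.74), ITGAE (0.96), ITGB6 (0.70) and KANK1 (0.55) rising most and SORBS3 (-0.79) and LIMD1 (-0.47) falling. The medians were 0.29, 0.08 and 0.03. TNS1, a tensin that links integrins to actin in fibrillar adhesions, had 11.2 and 12.0 kb of H3K27ac with TGF-beta, against 0.707 and 0.424 kb with vehicle. ITGB6 had 4.81 and 5.46 kb of SMAD3 with TGF-beta, against 0.264 and 0.750 kb with vehicle.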

How the data were processed

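Per the file headers and the submitters' processing notes, the authors called peaks in each library with MACS2 on paired-end reads aligned to hg38 with BWA, with Picard and bedtools also named; the sources give no versions, cutoff or control. The deposited score of a peak is -log10 of a p or q value (which is not stated) and was used only to rank or filter peaks. The label for the agent set each group, since the treatment text is the same for all samples. The 4 inputs were not used. Peaks off the autosomes and X were dropped (7 to 66 per library). Read depth is unknown, so no counting error can be given.

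Peak length per gene was analysed as log2(length + 500 bp), keeping genes whose mean reached 500 bp, with each library centred on its median over genes that all 4 libraries covered. limma 3.58.1 in R 4.3.3 tested each target alone and the treatment by mark term, with Benjamini-Hochberg adjustment over all genes at 0.05; it pools the spread over genes, and with 2 libraries against 2 an exact permutation test of 1 gene allows no p below 0.333. The fit was tested on simulated data. Windows of 10 kb flanks can hold neighbouring genes, and tests take neighbours as independent. Merged regions were counted, not tested, with an overlap of 1 bp. Other steps used Python 3.11.15, numpy 2.4.6, pandas 2.3.3, scipy 1.17.1 and matplotlib 3.10.9. Gene spans and the promoter windows come from RefSeq. The members, the pathway list and the tests were chosen with earlier results of these data known. Full values were given for up to 14 called members per target, by size of change among those whose libraries lie apart, and for ITGB1, ITGA5, ITGA2, ITGB4, VCL, PTK2 and ZYX; positions were given for the 8 longest gained and 4 longest lost regions per target, and other regions and members were named after their values were seen. Alternatives were pseudocounts of 100 and 2000 bp, no filter, no centring, equal numbers of peaks, a score of at least 5, flanks of 2.5 and 50 kb, limma with trend and robust options, the replicate number as a block, each library left out, and for regions an overlap of 50%.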

Additional observations from a re-analysis of the deposited data

Results flagged for a closer look

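At 3 of the 36 adhesion genes tested the change of H3K27ac differed from the change of H3K9ac by the treatment by mark term (limma, Benjamini-Hochberg over all genes). That was 8.3%, against 5.7% of 13597 genes that passed with a difference above 0. The difference, H3K27ac minus H3K9ac, was 1.0381 at ITGA11 (log2, adjusted p = 0.00524), 0.7413 at FERMT2 (adjusted p = 0.00458) and 0.5283 at ITGA1 (adjusted p = 0.0143). At ITGA11 both marks were higher in both TGF-beta libraries than in both vehicle libraries, and the H3K27ac change was the larger one. At FERMT2 and ITGA1 the H3K27ac libraries lay apart while the H3K9ac libraries of TGF-beta and vehicle overlapped. The ITGA11 and FERMT2 terms passed in every alternative run, and the ITGA1 term in all but 2, without TGF-beta replicate 1 of H3K9ac and without TGF-beta replicate 2 of H3K27ac.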

How the results depend on the processing

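The limits are those of peak lists: no reads, unknown depth, 2 libraries a group and windows shared with neighbours. Counts of adhesion genes that rose varied when 1 library was left out, which leaves 1 library in a group, and counts over all genes varied too. With equal numbers of peaks 5 adhesion genes rose in SMAD3, beside 632 of 12262 genes. Without centring 2 adhesion genes rose in H3K9ac, beside 183 of 14601 genes. Uncentred, 99.4% of SMAD3 calls over all genes were increases (88.9% centred) and 74.0% of H3K27ac calls (56.5% centred). The change was larger in H3K27ac than in H3K9ac at 6 adhesion genes with a pseudocount of 2000 bp and 5 with a score of at least 5. It was so at 5 with flanks of 2.5 kb and 6 with trend and robust options. Over all genes these 4 settings gave 988, 727, 620 and 876. The change was larger in H3K9ac at 1 adhesion gene with a pseudocount of 2000 bp, flanks of 2.5 kb or trend and robust options. Over all genes these gave 317, 229 and 301. The single SMAD3 decrease, FERMT1, was lost, leaving 0, with a pseudocount of 100 or 2000 bp, no filter, no centring, equal numbers of peaks, a score of at least 5, flanks of 2.5 kb or any 1 library left out (0 to 0). Decreases numbered 7 of 37 in H3K27ac and 4 of 37 in H3K9ac with flanks of 50 kb, where 3001 of 16262 and 1154 of 16454 genes fell. The H3K27ac count is near the share of all genes. With a pseudocount of 2000 bp, 2 of 36 fell in H3K9ac, beside 1045 of 14601 genes. TLN2 in SMAD3 changed sign with flanks of 2.5 kb, at -0.0544 (adjusted p = 0.838); fewer peaks were counted there by construction, and for the other changes the cause was not tested. With flanks of 50 kb, 3 changes above 0 without a call passed as lower: ITGA9 (-0.2363) and ITGB7 (-0.2858) in H3K27ac and FERMT1 (-0.3835) in H3K9ac.

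With the replicate number as a block, 16 adhesion genes rose and 0 fell in SMAD3, 12 rose and 3 fell in H3K27ac, and 10 rose and 2 fell in H3K9ac. Over all genes 1299 rose and 129 fell in SMAD3, 2082 and 1593 in H3K27ac, and 673 and 831 in H3K9ac. The block ended the calls of FERMT1 in SMAD3, ITGA5, ACTN1 and FLNC in H3K27ac (adjusted p of 0.0503 to 0.0718) and ITGB1 in H3K9ac (0.0531), and added ITGA6 as lower in H3K27ac (0.023), ITGB5 as higher in H3K9ac (0.0352) and PTK2 as lower in H3K9ac (0.0307). The labels do not say that a number marks a shared culture, and deviations of same-numbered libraries correlated at -0.07 in SMAD3, -0.02 in H3K27ac and -0.14 in H3K9ac. Pairing the H3K9ac numbers crosswise, chosen after seeing the data, gave 11 higher and 1 lower, with 1449 calls over all genes.

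Regions called only with TGF-beta in SMAD3 numbered 14 with equal numbers of peaks and 63 to 150 with 1 library left out, and those called only with vehicle 2 with a score of at least 5, 4 with equal numbers of peaks and 2 to 7 with 1 library left out; 40 regions were constant when at least 50% of a region had to lie in peaks, and 69 to 81 with 1 library left out. With 1 library left out, H3K27ac had 128 to 235 TGF-beta-only, 29 to 78 vehicle-only and 242 to 253 constant regions, and H3K9ac 44 to 94, 25 to 63 and 175 to 186; leaving out a library of 1 treatment asks for fewer calls, so that more regions qualify by construction. Over every adhesion gene tested, each value under an alternative stayed on its side of the threshold, without a called value changing sign, in 438 of 487 cases in SMAD3 (35 genes), 470 of 517 in H3K27ac (37), 500 of 539 in H3K9ac (36) and 625 of 647 for the mark difference (36). These cases include genes that had no call and gained none, so they do not measure how stable the calls were. A call was lost in 42, 34, 23 and 2 cases and added in 6, 11, 15 and 20, beside those that turned round.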
